A study of Mus musculus with 32 samples.

Results

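Interleukin 10 (IL-10) and its anti-inflammatory axis were followed across 8 groups of bone marrow-derived macrophages (BMDMs) as 7 genes. These were the cytokine Il10, its receptor chains Il10ra and Il10rb, the IL-10-responsive transcriptional regulators Sbno2 and Nfil3, and Maf and Prdm1, transcription factors that act on Il10. All 7 were found among the 25067 named genes of the deposited table, on 12 of its 42361 transcript rows. The row kept for each gene was chosen by its mean tag count over all 32 libraries, which ranged from 427 tags for Nfil3 to 3499 tags for Maf, and no comparison between groups entered that choice.

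The macrophages came from male C57Bl6/J mice aged 6 to 12 weeks and were grown from bone marrow for 7 days in L929-conditioned medium. One genotype was wild type (BMDM-WT). The other carried a whole-body deletion of Nur77, encoded by Nr4a1 (BMDM-Nur77-KO), made by crossing mice with a loxP-flanked Nr4a1 locus to mice that express Cre from the CMV promoter, and the labels give this genotype as "cre". According to the methods, the deleted allele was then bred away from the Cre transgene, so that the knockout animals no longer expressed Cre. Cells of each genotype received 100 ng/ml lipopolysaccharide (LPS), a bacterial ligand of Toll-like receptor 4, for 1, 5 or 18 h, or were left untreated (0 h), with 4 replicate cultures in each of the 8 groups. The number of mice behind them is not given in the sources used here, so that p-values measure the spread between these samples only, which may be technical. Because the RNA was measured in bulk, fewer cells of a type and less RNA per cell cannot be told apart.

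IL-10 is the main cytokine by which activated macrophages limit their own inflammatory output. It binds a receptor of a specific chain, IL-10Rα, and a chain shared with other cytokines of the family, IL-10Rβ, and signals through the kinases JAK1 and TYK2 to the transcription factor STAT3. STAT3 in turn induces genes such as Sbno2, Nfil3, Socs3 and Bcl3, whose products restrain cytokine signaling or the transcription of inflammatory genes. In macrophages Il10 itself is transcribed after Toll-like receptor signaling, through MAP kinases, CREB, AP-1, C/EBP and NF-kB proteins.

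The kept rows held between 8742362 and 15780926 tags per library. Nr4a1, the deleted gene, was checked first. In BMDM-WT it measured 19.4, 15.4, 25.7 and 18.1 CPM at 0 h, and 483, 485, 358 and 421 CPM at 1 h. In BMDM-Nur77-KO it measured 4.92, 4.61, 4.44 and 6.99 CPM at 0 h, and 242, 179.6, 146 and 193 CPM at 1 h. Every BMDM-Nur77-KO library thus lay below every BMDM-WT library at both times, although the transcript was not absent and still rose with LPS. The log2 fold change between genotypes was -1.90 (SE 0.19, adjusted p = 1.5e-08) at 0 h and -1.20 (SE 0.15, adjusted p = 1.9e-06) at 1 h, both by the quasi-likelihood test of edgeR, adjusted by the method of Benjamini and Hochberg for 11327 tested genes. At 5 h it ranged from 0.797 to 1.06 CPM in BMDM-WT and from 0.109 to 0.687 CPM in BMDM-Nur77-KO, and at 18 h from 0.174 to 0.476 and from 0 to 0.447 CPM, which is 9 tags or fewer per library. The table does not separate the exons of Nr4a1, so that tags from a transcript without the deleted part cannot be distinguished.

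The 8 macrophage markers (Adgre1, Itgam, Csf1r, Cd68, Lyz2, Mertk, Fcgr1 and Cd14) were expressed in all libraries, with a summed level of 11052 to 18854 CPM. Markers of B cells, T cells, neutrophils, dendritic cells, mast cells and fibroblasts summed to at most 31.0 CPM for any list. Among the libraries, BMDM-Nur77-KO at 5 h replicate 1 and BMDM-Nur77-KO at 18 h replicate 4 stood apart from their groups. Their scores on the first component of the within-group variation, which held 39.1% of it, were 55.2 and 36.8, whereas the other 30 libraries lay between -30.2 and 19.4. In these libraries the log2 level fell by 0.55 and 0.39 for each 10% of transcript GC content relative to their groups. Results of the members and some list counts at 5 h and 18 h are therefore given with and without them where it matters.

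**Figure D1:**
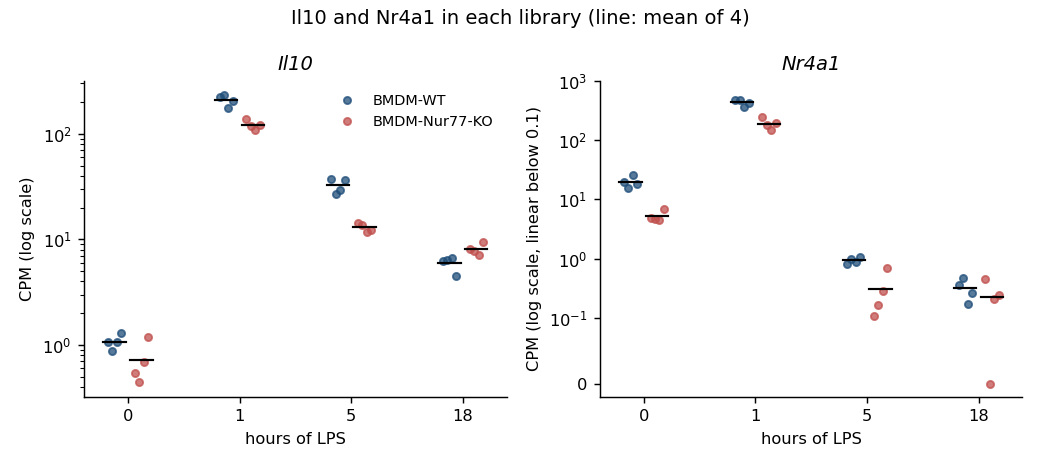
CPM of Il10 (left) and Nr4a1 (right) in each library against hours of LPS, on a log scale (linear below 0.1 for Nr4a1), with a line at the mean of the 4 libraries of each group. Il10 was lower in all BMDM-Nur77-KO libraries than in all BMDM-WT libraries at 1 h and 5 h, and higher in all of them at 18 h, when the range was 7.14 to 9.48 CPM against 4.48 to 6.61 CPM.

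Il10, the ligand of the axis (chr1:131019845-131024970, plus strand, GRCm38), was close to silent before LPS. Its levels were 1.07, 0.881, 1.06 and 1.30 CPM in the BMDM-WT libraries at 0 h and 0.546, 0.442, 0.689 and 1.19 CPM in BMDM-Nur77-KO, which corresponds to between 6 and 18 tags per library. These ranges overlapped. After 1 h of LPS Il10 reached 223, 231, 174 and 203 CPM in BMDM-WT and 137, 118, 109 and 121 CPM in BMDM-Nur77-KO, so that the highest knockout library lay below the lowest wild-type library. At 5 h it had come down to 37.1, 27.2, 29.5 and 36.9 CPM in BMDM-WT. In BMDM-Nur77-KO at 5 h it measured 14.3, 13.8, 11.8 and 12.2 CPM, again without overlap. At 18 h the order of the genotypes was the opposite: 6.22, 6.38, 6.61 and 4.48 CPM were measured in BMDM-WT and 8.05, 7.75, 7.14 and 9.48 CPM in BMDM-Nur77-KO.

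A call between genotypes required an adjusted p below 0.05 together with a log2 fold change beyond 0.58, up or down. In BMDM-Nur77-KO Il10 was lower by a factor of 1.71 at 1 h (log2 fold change -0.77, SE 0.11, adjusted p = 2.3e-05 by edgeR's quasi-likelihood test) and by a factor of 2.51 at 5 h (log2 fold change -1.33, SE 0.13, adjusted p = 1.3e-08). Both calls held in every alternative fit, with log2 fold changes between -0.85 and -0.72 at 1 h and between -1.48 and -1.26 at 5 h. At 0 h the log2 fold change was -0.58 (SE 0.29, adjusted p = 0.19 by the same edgeR test) and passed only when BMDM-Nur77-KO replicate 4 was left out (-0.93, adjusted p = 0.044). At 18 h it was 0.45 (SE 0.15, 95% interval 0.15 to 0.75, edgeR adjusted p = 0.032), which is below the limit on size, and the adjusted p ranged from 0.020 to 0.15 over the alternative fits.

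The change over time showed where the genotypes parted. Relative to 0 h, Il10 rose 193-fold at 1 h, 30.4-fold at 5 h and 5.51-fold at 18 h in BMDM-WT, and 169-fold, 18.1-fold and 11.3-fold in BMDM-Nur77-KO. All 6 changes passed the edgeR test at a log2 fold change over 1, with adjusted p-values of 3.4e-12 or lower. From 5 h to 18 h Il10 dropped 5.52-fold in BMDM-WT (log2 fold change -2.46, SE 0.14, adjusted p = 1.2e-15 by edgeR), whereas its log2 fold change in BMDM-Nur77-KO was -0.68 (SE 0.14, adjusted p = 9.6e-05), under the limit of 1. The interaction of genotype and time, which tests the difference between these 2 changes itself, was 1.78 on the log2 scale (SE 0.20, adjusted p = 1.7e-07 by edgeR). Leaving out any library kept this value between 1.67 and 1.86. The interaction for 18 h against 0 h was 1.03 (SE 0.33, edgeR adjusted p = 0.041). Its adjusted p lay between 0.0067 and 0.14 when single libraries were left out. For 1 h and 5 h against 0 h the interaction did not pass (-0.19 and -0.75, adjusted p = 0.81 and 0.27 by edgeR).

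**Figure D2:**
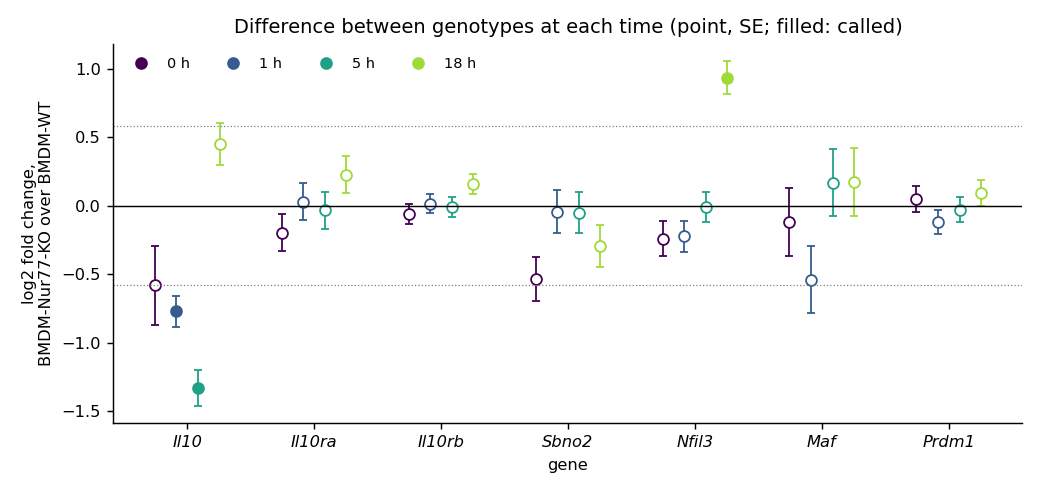
Log2 fold change of BMDM-Nur77-KO over BMDM-WT (y axis) for each of the 7 genes (x axis) at 0, 1, 5 and 18 h of LPS, with its SE. Filled points were called, and dotted lines mark the limit of 0.58 in either direction. The 3 filled points are Il10 at 1 h (-0.77) and 5 h (-1.33) and Nfil3 at 18 h (0.94).

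Il10ra encodes the ligand-binding chain of the receptor (chr9:45253837-45269149, minus strand). Its mean rose with LPS to a maximum at 5 h in both genotypes. In BMDM-Nur77-KO the libraries at 5 h and 18 h overlapped, and the log2 fold change between these times was -0.33, under the limit of 1. In BMDM-WT its means at 0, 1, 5 and 18 h were 101 ± 16.7, 214 ± 21.8, 320.4 ± 8.12 and 212 ± 12.9 CPM (SD, n = 4). The corresponding means in BMDM-Nur77-KO were 88.1 ± 11.8, 218 ± 10.2, 313 ± 73.8 and 248 ± 40.4 CPM. The genotypes overlapped at each time, with log2 fold changes of -0.20, 0.03, -0.03 and 0.23 and edgeR adjusted p-values of 0.25 or higher. The widest 95% interval of these differences, -0.46 to 0.07 at 0 h, excludes a 2-fold change. The lowest knockout libraries at 5 h and 18 h (209.5 and 192 CPM) were the ones that stood apart. Without them the interaction of genotype and LPS at 18 h against 0 h was 0.53 (adjusted p = 0.0076 by edgeR), compared with 0.42 (adjusted p = 0.19) with all libraries, and with a correction for GC content in each library it was 0.42 (adjusted p = 0.026).

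Il10rb, the shared signaling chain (chr16:91406157-91425834, plus strand), followed a slower course. Its means at 0, 1, 5 and 18 h were 217 ± 25.3, 223 ± 11.1, 295 ± 7.22 and 396 ± 13.3 CPM in BMDM-WT (SD, n = 4). Its means in BMDM-Nur77-KO were 209 ± 12.5, 226 ± 19.6, 292 ± 10.8 and 443 ± 20.5 CPM. The 2 genotypes again overlapped at every time, with log2 fold changes between -0.06 and 0.16 and edgeR adjusted p-values of 0.12 or higher. The rise from 0 h to 18 h had a log2 fold change of 0.87 (SE 0.07) in BMDM-WT and 1.09 (SE 0.07) in BMDM-Nur77-KO. Only the second exceeded the limit of 1, but the difference between the rises did not pass the edgeR test (interaction 0.22, adjusted p = 0.21).

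Per transcript length, the ligand and its receptor chains changed order. At 0 h in BMDM-WT Il10 was at 0.823 RPKM (CPM divided by transcript length in kilobases) ± 0.133 (SD, n = 4), against 28.9 ± 4.78 RPKM for Il10ra and 117 ± 13.7 RPKM for Il10rb. At 1 h the level of Il10 was 159 ± 19.2 RPKM in BMDM-WT, above Il10ra (61.1 ± 6.23 RPKM) and Il10rb (121 ± 6.01 RPKM). In BMDM-Nur77-KO at 1 h Il10 was at 92.8 ± 8.96 RPKM, which lies between Il10ra (62.3 ± 2.91 RPKM) and Il10rb (122 ± 10.6 RPKM). By 18 h the level of Il10 was again below both chains in both genotypes, at 4.52 ± 0.742 and 6.19 ± 0.758 RPKM.

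**Figure D3:**
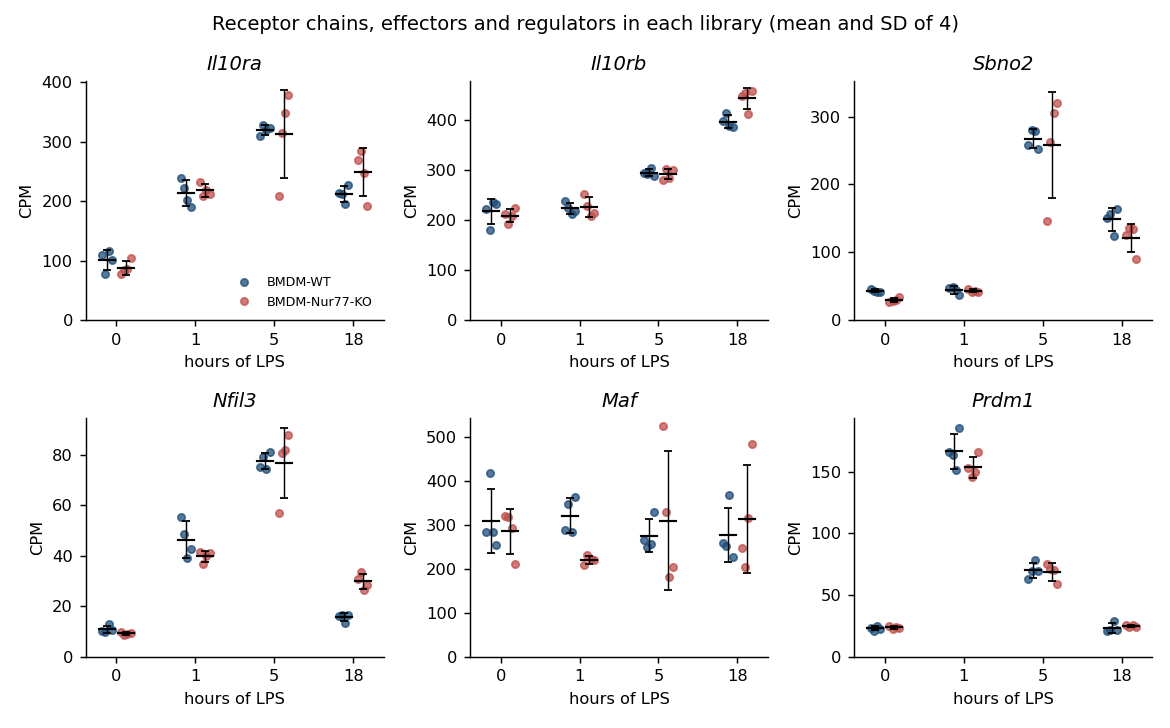
CPM of Il10ra, Il10rb, Sbno2, Nfil3, Maf and Prdm1 in each library against hours of LPS, with mean and SD of the 4 libraries. Nfil3 at 18 h lies at 26.6 to 33.7 CPM in BMDM-Nur77-KO and at 13.3 to 16.7 CPM in BMDM-WT, and BMDM-Nur77-KO at 5 h replicate 1 is the highest point for Maf (525 CPM) and the lowest of its group for Sbno2 (146 CPM).

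Sbno2 encodes a corepressor induced by IL-10 through STAT3 (chr10:80056992-80106108, minus strand). Before LPS it measured 46.5, 43.2, 41.9 and 40.9 CPM in BMDM-WT and 26.8, 28.6, 29.7 and 33.9 CPM in BMDM-Nur77-KO. All knockout libraries lay below all wild-type libraries, with a log2 fold change of -0.54 (SE 0.16, edgeR adjusted p = 0.023) that was just under the limit of 0.58. With the GC correction it was -0.32, and without BMDM-Nur77-KO replicate 4 it passed the limit (-0.60). After 1 h the genotypes overlapped (44.4 ± 5.36 and 43.2 ± 2.48 CPM, SD, n = 4). At 5 h Sbno2 rose to 258, 281, 279 and 253 CPM in BMDM-WT and to 146, 262, 305 and 319.8 CPM in BMDM-Nur77-KO, where the lowest value belongs to the library that stood apart. The log2 fold change between genotypes was -0.05 (SE 0.15, edgeR adjusted p = 0.83) at 5 h and turned to 0.14 (adjusted p = 0.28) without that library and BMDM-Nur77-KO at 18 h replicate 4. Its rise from 0 h to 5 h was 6.20-fold in BMDM-WT and 8.68-fold in BMDM-Nur77-KO. The difference between these rises depended on the same libraries: the interaction was 0.49 (adjusted p = 0.27 by edgeR) with all 32 libraries, 0.68 (adjusted p = 0.00088) without the pair and 0.45 (adjusted p = 0.00097) with the GC correction. The same holds for the interaction at 18 h against 0 h, at 0.24 (adjusted p = 0.61 by edgeR) with all libraries and 0.36 (adjusted p = 0.046) without the pair. From 5 h to 18 h the interaction was -0.24 (adjusted p = 0.51 by edgeR), and it passed with the GC correction (-0.32, adjusted p = 0.0049) and without BMDM-Nur77-KO at 5 h replicate 1 (-0.44, adjusted p = 0.046). At 18 h Sbno2 measured 149 ± 17.1 CPM in BMDM-WT and 121 ± 21.0 CPM in BMDM-Nur77-KO (log2 fold change -0.29, SE 0.15, edgeR adjusted p = 0.18).

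Nfil3 encodes a basic leucine zipper repressor that IL-10 induces and that acts on Il12b (chr13:52967209-52982878, minus strand). It was low at 0 h, with 10.1, 9.95, 13.1 and 10.6 CPM in BMDM-WT and 9.75, 8.78, 8.88 and 9.54 CPM in BMDM-Nur77-KO. These ranges lay next to each other without overlap, and the log2 fold change of -0.24 (SE 0.13, edgeR adjusted p = 0.23) did not pass. It rose at 1 h (46.4 ± 7.17 and 39.8 ± 2.13 CPM, SD, n = 4) and at 5 h (77.6 ± 3.10 and 76.9 ± 13.8 CPM) to levels that overlapped between genotypes, with edgeR adjusted p-values of 0.31 and 0.95. At 18 h it had come down to 16.0, 16.4, 13.3 and 16.7 CPM in BMDM-WT, still above 0 h. The log2 fold change against 0 h was 0.52 (edgeR adjusted p = 0.00061), under the limit of 1. The BMDM-Nur77-KO libraries at 18 h were at 31.0, 33.7, 26.6 and 28.3 CPM. The ranges of the 2 genotypes did not overlap, and Nfil3 was 1.91-fold higher in BMDM-Nur77-KO (log2 fold change 0.94, SE 0.12, edgeR adjusted p = 5.2e-07). The call held in every alternative fit, with log2 fold changes between 0.87 and 1.05. Its drop from 5 h to 18 h was 4.97-fold in BMDM-WT and 2.58-fold in BMDM-Nur77-KO, and the difference between these drops passed the test (interaction 0.95, SE 0.16, edgeR adjusted p = 0.00011), as did the difference in the change from 0 h to 18 h (interaction 1.18, SE 0.18, adjusted p = 2.4e-05).

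Dendritic cell markers differed between the genotypes at 18 h as well. Of the 6 dendritic cell markers, Clec9a and Xcr1 passed the filter on low values, and both were called higher in BMDM-Nur77-KO. Over all genes tested 9.8% were called at 18 h. The Xcr1 libraries overlapped (2.40 to 5.23 CPM in BMDM-Nur77-KO against 2.00 to 2.96 CPM in BMDM-WT). The list summed to 13.7 to 23.0 CPM in BMDM-Nur77-KO and to 5.69 to 7.39 CPM in BMDM-WT, most of it from Clec9a (10.2 to 16.4 against 2.67 to 4.19 CPM), whereas Zbtb46 stayed at or below 0.447 CPM and Flt3 at or below 0.0952 CPM in both groups. The dendritic cell list also changed with LPS. In BMDM-WT it summed to 1.37 to 1.76 CPM at 0 h and to 14.2 to 20.3 CPM at 5 h. At 5 h it summed to 14.6 to 28.4 CPM in BMDM-Nur77-KO, which overlapped with BMDM-WT. The summed macrophage markers at 18 h were 11052 to 12671 CPM in BMDM-Nur77-KO and 14039 to 14687 CPM in BMDM-WT, with 1 of 8 called higher and 2 lower. Of the B cell, T cell and neutrophil lists 1, 1 and 3 genes were tested and 0 called by edgeR, and no mast cell or fibroblast marker passed the filter. The part of these differences in the levels of Il10 and Nfil3, and in the other 18 h results given further on, was not tested.

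Maf, a transcription factor that binds the Il10 promoter (chromosome 8), did not pass the test in any of the comparisons. Its level was 284, 417, 283 and 254 CPM in BMDM-WT at 0 h and 319, 318, 292 and 210.1 CPM in BMDM-Nur77-KO. At 1 h it measured 288, 348, 285 and 363 CPM in BMDM-WT and 209, 231, 221 and 221 CPM in BMDM-Nur77-KO. The 1 h ranges did not overlap, but against the spread of Maf over all groups the log2 fold change of -0.54 had an SE of 0.25 and an edgeR adjusted p of 0.25. When only the 1 h libraries were fitted, the adjusted p was 0.00022 with the same log2 fold change, still under the limit of 0.58, and with the GC correction it was 0.14. At 5 h and 18 h the BMDM-Nur77-KO libraries scattered from 181 to 525 CPM and from 204 to 483 CPM, and the highest value of each group came from the library that stood apart. Without this pair the log2 fold changes went from 0.17 to -0.21 at 5 h and from 0.17 to -0.12 at 18 h.

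**Figure D4:**
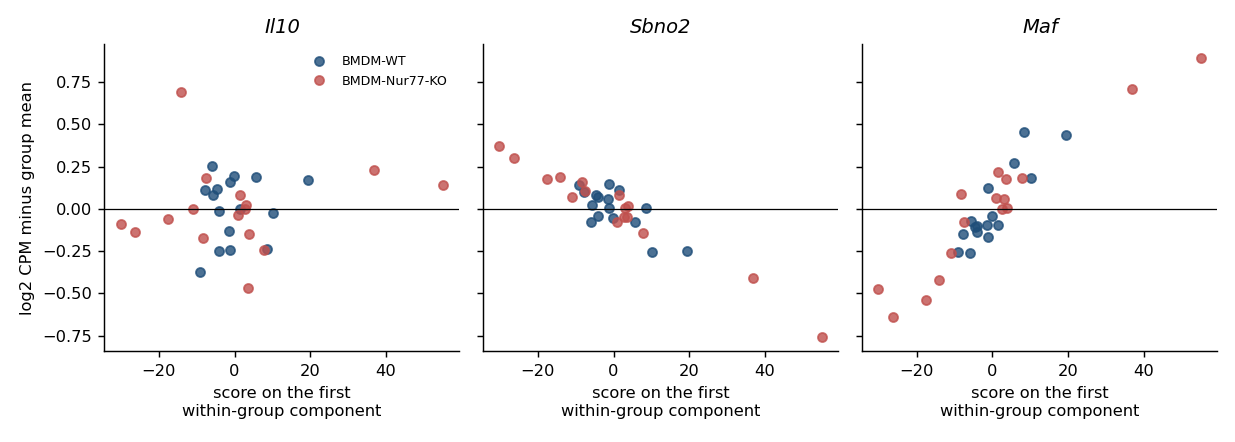
Difference of the log2 CPM of Il10, Sbno2 and Maf from the mean of the library's own group (y axis) against the library's score on the first within-group component (x axis), for 32 libraries. The points at 55.2 and 36.8 are BMDM-Nur77-KO at 5 h replicate 1 and at 18 h replicate 4: they are high for Maf, low for Sbno2 and within the range of the other libraries for Il10.

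The GC content of the kept transcripts was 44.5% for Il10, 47.4% for Maf, 47.7% for Prdm1, 49.1% for Il10rb, 53.0% for Il10ra, 54.5% for Nfil3 and 59.7% for Sbno2. In BMDM-Nur77-KO at 5 h replicate 1 the log2 level was above the group mean by 0.14 for Il10, 0.89 for Maf and 0.13 for Prdm1. It deviated by -0.06 for Il10rb, -0.54 for Il10ra, -0.42 for Nfil3 and -0.76 for Sbno2. The members with the higher GC content were thus the lower ones in this library, with Maf above its neighbours, and the part of base composition was not tested beyond the corrected fit.

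Prdm1 encodes BLIMP1, a zinc finger repressor (chr10:44437174-44528558, minus strand). It responded to LPS early and alike in both genotypes. It rose from 23.6, 21.0, 24.8 and 22.8 CPM at 0 h to 166, 163, 151 and 185 CPM at 1 h in BMDM-WT, and from 25.3, 22.4, 24.2 and 23.6 CPM to 153, 145, 150.0 and 166 CPM in BMDM-Nur77-KO. The fold changes were 7.22 and 6.43, with an interaction of -0.17 (SE 0.13, edgeR adjusted p = 0.56). It then declined to 70.0 ± 6.11 and 68.6 ± 6.94 CPM (SD, n = 4) at 5 h and to 23.3 ± 3.75 and 24.8 ± 0.898 CPM at 18 h, where the log2 fold change against 0 h was 0.01 in BMDM-WT and 0.06 in BMDM-Nur77-KO. Between genotypes its log2 fold changes lay between -0.12 and 0.09, with 95% intervals inside -0.29 and 0.28 at all 4 times.

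RefSeq promoter windows (GRCm38.p6, 250 bases before to 50 bases after a start site) were available for 3 of the 7 members, Sbno2, Nfil3 and Prdm1. No window was found for Il10, Il10ra, Il10rb and Maf. The windows were searched on both strands for the AP-1 motif TGANTCA, the cAMP response element TGACGTCA, the Nur77 monomer element (NBRE) AAAGGTCA and the STAT motif TTCNNNGAA, which occur in 7.81%, 1.79%, 1.51% and 8.30% of the 32851 windows of the table. They are shown because these 3 genes responded to LPS and Nfil3 differed between genotypes, with matches in capitals, on the minus strand, 5′ to 3′.
Sbno2, chr10:80102653-80102952: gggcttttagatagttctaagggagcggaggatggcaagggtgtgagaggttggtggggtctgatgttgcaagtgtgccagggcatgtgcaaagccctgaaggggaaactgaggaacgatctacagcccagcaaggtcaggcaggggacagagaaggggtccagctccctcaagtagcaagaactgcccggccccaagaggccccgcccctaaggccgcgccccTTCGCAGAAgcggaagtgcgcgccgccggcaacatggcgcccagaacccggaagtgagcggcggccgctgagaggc
Nfil3, chr13:52980990-52981289: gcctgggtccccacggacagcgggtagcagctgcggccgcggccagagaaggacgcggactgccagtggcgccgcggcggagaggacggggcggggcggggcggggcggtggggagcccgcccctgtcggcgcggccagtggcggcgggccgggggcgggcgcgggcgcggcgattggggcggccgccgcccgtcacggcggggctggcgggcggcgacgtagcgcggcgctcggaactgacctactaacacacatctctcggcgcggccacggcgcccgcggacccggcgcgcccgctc
Prdm1, chr10:44458699-44458998: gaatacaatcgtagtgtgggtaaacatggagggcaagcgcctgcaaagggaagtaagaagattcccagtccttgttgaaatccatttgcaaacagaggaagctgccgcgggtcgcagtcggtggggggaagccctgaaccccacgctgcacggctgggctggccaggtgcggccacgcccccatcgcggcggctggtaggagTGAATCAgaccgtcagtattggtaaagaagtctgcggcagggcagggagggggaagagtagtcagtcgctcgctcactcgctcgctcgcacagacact
For Sbno2 the table holds 3 windows, and the one of its most 5′ start site among them is printed. It holds 1 STAT match, 26 to 18 bases before the start site. The second Sbno2 window (chr10:80101138-80101437) also holds 1 STAT match, 24 to 16 bases before its start site, and the third holds none. The Prdm1 window holds 1 match to the AP-1 pattern, TGAATCA, 48 to 42 bases before its start site. The pattern as searched accepts any base at its centre, here an A. The Nfil3 window, with a GC content of 81.7%, holds none of the 4 sets of letters. These matches describe the sequence and do not show binding.

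Over the 7 members, 0 or 1 was called between genotypes at each time, and 7 genes are too few to compare with the share over the whole table. At 0 h 0 of 7 were called by edgeR (1 at an unadjusted p under 0.05, Sbno2, and 0 by DESeq2), against 4.83% of all tested genes. At 1 h 1 of 7 was called (Il10, lower), against 2.88%. At 5 h 1 of 7 was called (Il10, lower), against 8.73%. At 18 h 1 of 7 was called (Nfil3, higher), against 9.8%. The response to LPS involved more of them. In BMDM-WT 4 of 7 were higher at 1 h (5.19% of all genes were called in either direction), 5 of 7 at 5 h (33.7%) and 3 of 7 at 18 h (27.5%). In BMDM-Nur77-KO 4 of 7 were higher at 1 h (4.53%), 5 of 7 at 5 h (32.6%) and 5 of 7 at 18 h (31.8%). From 5 h to 18 h 3 of 7 were lower in BMDM-WT (Il10, Nfil3 and Prdm1; 30.1% of all genes called) and 3 of 7 in BMDM-Nur77-KO (Sbno2, Nfil3 and Prdm1; 28.6%). The genotype and LPS interaction was called for 0 of 7 at 1 h (0.0706% of all genes; 1 member at an unadjusted p under 0.05 and 0 by DESeq2) and 0 of 7 at 5 h (3.06%; 2 members at an unadjusted p under 0.05 and 0 by DESeq2). It was called for 2 of 7 at 18 h, Il10 and Nfil3 (9.38%), and for the same 2 from 5 h to 18 h (13.3%). The median log2 fold change of the 7 members between genotypes was -0.20, -0.12, -0.03 and 0.17 at 0, 1, 5 and 18 h, and that of all genes tested was within 0.03 of 0. The comparisons share their control libraries, so that they are not independent of each other.

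The order of the group means separated the members. For Il10 all neighbouring groups were without overlap except the 0 h groups, in the order BMDM-WT at 1 h (208 CPM), BMDM-Nur77-KO at 1 h (122), BMDM-WT at 5 h (32.7), BMDM-Nur77-KO at 5 h (13.0), BMDM-Nur77-KO at 18 h (8.11), BMDM-WT at 18 h (5.92) and the 0 h groups (1.08 and 0.717). For Prdm1 the 1 h groups came first and the 5 h groups next, the 18 h and 0 h groups followed without a gap between them, and the genotypes overlapped within each time. For Maf every pair of neighbours overlapped except BMDM-WT at 5 h (275 CPM) and BMDM-Nur77-KO at 1 h (220.5 CPM), the lowest group. Across the 8 group means of log2 CPM, Il10 was most like Prdm1 among the members (Pearson r = 0.919), and Il10ra most like Nfil3 (r = 0.899). Among all tested genes, those most like Il10 were Dusp2 (r = 0.993), Zfp36 (0.992), Dusp1 (0.990), Csrnp1 (0.985) and Junb (0.981), of which Zfp36 and Dusp1 encode an mRNA decay factor and a MAP kinase phosphatase. Ehd1 (0.993) and Il12b (0.988) were most like Il10ra, H2-Q4 (0.999) and Psmb2 (0.998) most like Il10rb, Ifi47 (0.994) and Ccdc86 (0.993) most like Sbno2, 4933416M07Rik (0.993) and Rab11fip1 (0.992) most like Nfil3, Tsacc (0.880) and Mrps10 (0.839) most like Maf, and Cxcl1 (0.992) and Arl5b (0.987) most like Prdm1. The 2 genes named for Maf varied little, with group means of 0.406 to 0.724 CPM for Tsacc and 12.8 to 15.1 CPM for Mrps10. These correlations rest on 8 points that share their libraries and describe the shape of the time course only.

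The other genes of the pathway were taken as 5 lists. Of 11 further ligands and receptors of the IL-10 family, 2 passed the filter on low values (Il19 and Il20rb). At 1 h and 18 h 0 of the 2 were called (1 and 0 at an unadjusted p under 0.05, and 0 by DESeq2). Il20rb, a receptor chain for IL-19, IL-20 and IL-24, exceeded its wild-type level in BMDM-Nur77-KO at 0 h (5.35 ± 1.27 against 2.81 ± 0.533 CPM, SD, n = 4; log2 fold change 0.93, edgeR adjusted p = 0.0036) and at 5 h (21.7 ± 4.06 against 13.3 ± 1.54 CPM, SD, n = 4; log2 fold change 0.71, edgeR adjusted p = 0.0055). The call at 5 h was lost when only the groups compared were fitted (0.70, edgeR adjusted p = 0.051). Of 8 genes of IL-10 receptor signaling, 2 were lower at 0 h, 0 differed at 1 h (0 at an unadjusted p under 0.05 and 0 by DESeq2), 0 at 5 h (4 at an unadjusted p under 0.05 and 0 by DESeq2) and 2 were higher at 18 h. The shares called over all genes tested were 4.83%, 2.88%, 8.73% and 9.8% at these times. The count at 0 h was 1 when any of 5 of the 8 libraries was left out, and 3 by DESeq2. At 5 h up to 3 genes were called lower with single libraries left out (BMDM-Nur77-KO replicate 2, 3 or 4), and 1 with the GC correction. The higher genes at 18 h were Stat3, the main transducer of IL-10 (474 ± 37.7 against 295 ± 15.5 CPM; log2 fold change 0.68, edgeR adjusted p = 2.4e-07), and Socs1, a feedback inhibitor of JAK kinases, whose libraries overlapped (range 16.5 to 62.5 against 15.8 to 25.2 CPM, with an adjusted p of 0.026 and a log2 fold change of 0.95). The Socs1 call was lost without BMDM-Nur77-KO at 18 h replicate 3 (edgeR adjusted p = 0.16) and without BMDM-WT at 18 h replicate 1 or 3 (adjusted p = 0.065 and 0.072).

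Of 26 regulators of Il10 transcription, 2 were higher at 0 h, 1 was higher at 1 h, 1 was higher and 2 lower at 5 h, and 6 were higher at 18 h in BMDM-Nur77-KO. Against 4.83%, 2.88%, 8.73% and 9.8% of all genes tested at 0, 1, 5 and 18 h, the counts at 0, 1 and 5 h were near the background. The 1 at 1 h was Bhlhe40, a repressor of Il10, at 164 ± 16.7 against 97.4 ± 6.87 CPM (SD, n = 4; log2 fold change 0.75, edgeR adjusted p = 1.6e-06). At 18 h its log2 fold change was 1.35 (adjusted p = 1.6e-10 by edgeR), with 22.2 ± 1.34 against 8.74 ± 0.610 CPM. Dusp1, the MAP kinase phosphatase named above, was lower at 5 h (168 ± 28.4 against 333 ± 2.97 CPM; log2 fold change -0.99, edgeR adjusted p = 2.3e-09). Its lowest knockout value, 126 CPM, came from BMDM-Nur77-KO at 5 h replicate 1, which stood apart. The highest knockout value was 191 CPM, below every wild-type library. Stat3, named above, also belongs to this list. Nfkb1, the p50 subunit of NF-kB, was among the 6 at 18 h (235 ± 27.5 against 140.2 ± 3.52 CPM; log2 fold change 0.75, edgeR adjusted p = 1.4e-08).

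**Figure D5:**
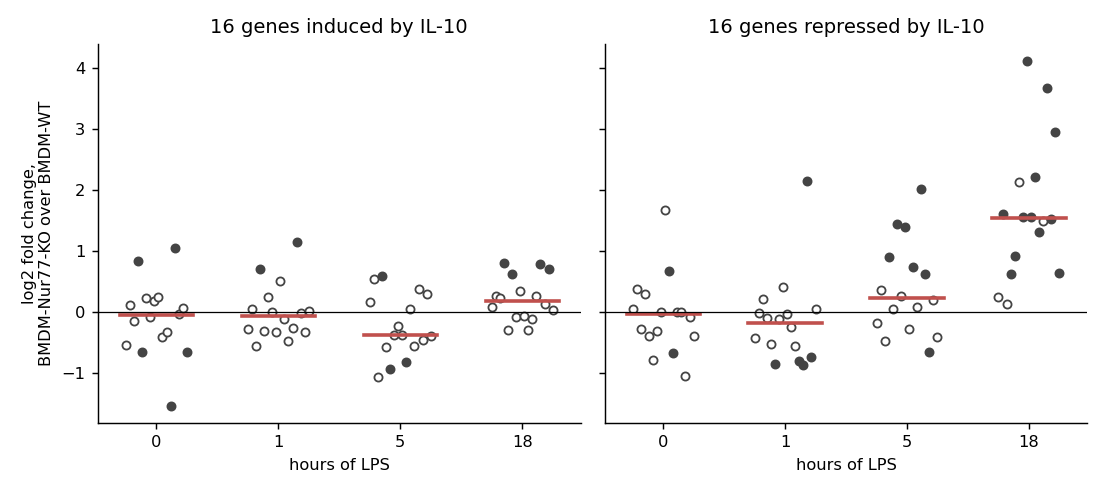
Log2 fold change of BMDM-Nur77-KO over BMDM-WT (y axis) at each time of LPS (x axis) for 16 genes known to be induced by IL-10 (left) and 16 known to be repressed by IL-10 (right). Each point is a gene, filled where called, and the bar is the median, which for the repressed genes is 1.54 at 18 h, when 12 of 16 were higher; points of genes with 3 tags or fewer per library in a group depend on the fit's prior count.

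Of 16 genes induced by IL-10, 2 were higher and 3 lower at 0 h, 2 higher and 0 lower at 1 h, 1 higher and 2 lower at 5 h and 4 higher and 0 lower at 18 h in BMDM-Nur77-KO, where the shares over all genes tested were 4.83%, 2.88%, 8.73% and 9.8%. Their median log2 fold changes were -0.06, -0.07, -0.38 and 0.17, against medians within 0.03 of 0 over all genes. Etv3, an ETS repressor, was higher at all 3 times after LPS, with 805 ± 32.7 against 494 ± 8.28 CPM at 1 h (SD, n = 4; log2 fold change 0.71, edgeR adjusted p = 7.3e-08). At 5 h its log2 fold change was 0.59 (adjusted p = 1.5e-06 by edgeR), which fell below the limit without BMDM-Nur77-KO replicate 2, 3 or 4 or BMDM-WT replicate 1 (lowest value 0.53), and at 18 h 0.80 (adjusted p = 2.0e-09). Timp1, a protease inhibitor, was higher at 1 h (7.27 ± 1.39 against 3.33 ± 0.640 CPM; edgeR adjusted p = 2.3e-05) and 18 h (18.3 ± 1.71 against 10.6 ± 1.50 CPM; adjusted p = 9.6e-05). Gadd45g, a stress-induced gene, and Il4ra, a chain of the IL-4 receptor, were lower at 5 h, with log2 fold changes of -0.94 and -0.83 (edgeR adjusted p = 1.2e-05 and 2.8e-05). Their lowest knockout values, 16.1 and 242 CPM, came from BMDM-Nur77-KO at 5 h replicate 1, which stood apart. For both genes the libraries of the genotypes did not overlap. Tnip3, an inhibitor of NF-kB signaling, had a log2 fold change of 0.71 at 18 h (edgeR adjusted p = 0.0020) and of 0.51 without the pair of libraries that stood apart, which is below the limit.

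Of 16 genes repressed by IL-10, 1 was higher and 1 lower at 0 h, 1 higher and 4 lower at 1 h, 6 higher and 1 lower at 5 h, and 12 higher and 0 lower at 18 h in BMDM-Nur77-KO. Over all genes tested, 4.83%, 2.88%, 8.73% and 9.8% were called at these times. The 2 calls at 0 h fell to 0 or 1 when any of 7 of the 8 libraries was left out and to 0 with the GC correction, and the 5 at 1 h fell to 3 without any of 4 libraries. At 18 h the sums of the dendritic cell markers (13.7 to 23.0 against 5.69 to 7.39 CPM) and of the macrophage markers (11052 to 12671 against 14039 to 14687 CPM) differed between the same libraries. The macrophage markers were mixed, with 1 of 8 called higher and 2 lower. The part of these markers in the 12 higher genes was not tested. The medians were -0.04, -0.19, 0.22 and 1.54 on the log2 scale. At 5 h the counts were 5 and 1 without the pair of libraries that stood apart and 4 and 0 with the GC correction, and at 18 h they were 11 and 0, and 12 and 0. All 16 were induced by LPS at 5 h in both genotypes. At 1 h Cxcl1, a neutrophil chemokine, was lower (220.2 ± 14.7 against 396 ± 29.9 CPM; log2 fold change -0.85, edgeR adjusted p = 0.0030). Il6 was lower at 1 h as well (3.08 to 4.35 against 3.95 to 8.95 CPM; -0.87, adjusted p = 0.041 by edgeR), a call that was lost when any of 7 of the 8 libraries was left out. The higher gene at 1 h, Nos2, was near the detection limit, with 23 tags in all 4 knockout libraries and 5 in the wild-type libraries, a ratio of 4.78 (95% counting interval 1.78 to 16.1), and its edgeR adjusted p of 0.049 was lost when any of 6 of the 8 libraries was left out (0.68 without BMDM-Nur77-KO replicate 3). It was also lost without a filter, with the replicate block and with only the groups compared (edgeR adjusted p = 0.055, 0.063 and 0.11).

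At 5 h Il23a and Il12a, subunits of IL-23 and IL-12, were at 2.39 ± 0.520 against 0.582 ± 0.139 CPM and 7.28 ± 1.96 against 2.75 ± 0.377 CPM (SD, n = 4; edgeR adjusted p = 0.00010 and 4.8e-05). Cxcl1 was higher at that time, in contrast to 1 h (19.9 ± 8.35 against 7.33 ± 2.36 CPM; log2 fold change 1.43, adjusted p = 6.7e-05 by edgeR). The highest knockout values at 5 h were 2.84 CPM for Il23a, 9.83 CPM for Il12a and 31.9 CPM for Cxcl1. Each came from BMDM-Nur77-KO replicate 1, which stood apart. The lowest knockout values, 1.67, 5.18 and 13.3 CPM, still exceeded the highest wild-type values of 0.734, 3.22 and 9.81 CPM. At 18 h Il6 measured 52.2 ± 9.30 CPM in BMDM-Nur77-KO and 4.11 ± 1.46 CPM in BMDM-WT (log2 fold change 3.66, edgeR adjusted p = 2.2e-11). Ptgs2, the inducible cyclooxygenase, measured 772 ± 173 and 99.6 ± 20.9 CPM (log2 fold change 2.95, edgeR adjusted p = 1.9e-13). Il12a had 179 tags in the 4 BMDM-Nur77-KO libraries and 9 in the 4 BMDM-WT libraries at 18 h, a ratio of 18.1 (95% counting interval 9.33 to 40.3; edgeR adjusted p = 1.4e-09). Il12b, a target of the repressor encoded by Nfil3, was at 108 ± 10.0 against 37.0 ± 3.36 CPM (log2 fold change 1.55, edgeR adjusted p = 1.8e-12), and is named here after its values were seen. Nfil3 and Il12b were both higher in BMDM-Nur77-KO at 18 h, and a link between them was not tested. At 18 h Il10 itself was 1.37-fold higher in BMDM-Nur77-KO, as described above. That difference was not called, as its log2 fold change of 0.45 was under the limit of 0.58.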

How the data were processed

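RNA sequencing had been carried out on 32 libraries of poly(A) RNA (KAPA mRNA HyperPrep, paired-end reads). Per the labels and the study's methods, the authors used CASAVA 1.8.2, aligned reads with HISAT2 2.1.0 to mm10, removed reads of low mapping quality and counted tags per RefSeq transcript with HOMER without normalization. The deposited values are estimated counts: every value is a multiple of 0.5 and 28.6% are not whole, as a single mate adds 0.5. Whether intronic tags or strand were used in counting is not given in the sources used here, so that tags from overlapping genes may not be separable.

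Counts were rounded to whole numbers. Rows were named through RefSeq, and 93 unnamed rows (0.233 to 1.37% of tags) were left out. The row with the highest mean was kept per gene, and testing was limited to 11327 genes whose mean RPKM exceeded 1 in any group. The fit used edgeR 4.0.16 (R 4.3.3), TMM scaling and the quasi-likelihood test, with 1 mean per group over 32 libraries and Benjamini-Hochberg adjustment over all genes tested. Calls needed an adjusted p below 0.05, with a log2 fold change beyond 0.58 between genotypes or beyond 1 over time, whereas interactions had no limit on size. Intervals are 95% intervals, and those of tag ratios cover counting error only. The scripts were tested on simulated data. The kept rows held 8742362 to 15780926 tags per library. Among 48 pairs of replicates the lowest chi-square per degree of freedom was 2.01, so that no library was counted as a copy of another.

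The members, lists and motifs were chosen with earlier results of these data known. Genes of each list were named by the rule of the 3 largest changes among those called at 1, 5 and 18 h, and the 5 genes most like a member were ranked by Pearson r, of which the first 5 are given for Il10 and the first 2 for the others. Some genes that this rule names are not reported here. Alternatives were DESeq2 1.42.0, its size factors, other filters, summed rows, the compared groups only, no limit on size, a replicate block and leaving out each library. Leaving out the pair of libraries that stood apart and a GC correction were chosen after seeing the data.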

Additional observations from a re-analysis of the deposited data

Results flagged for a closer look

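The Prdm1 level in BMDM-WT at 18 h replicate 3, 28.9 CPM, lay apart from the other 3 libraries of its group, which ranged from 21.0 to 21.8 CPM. It was the 1 library set apart by Dixon's test among 64 groups of 4 examined, and chance sets apart about 1 in 20 groups. The same library has a score of 19.4 on the first within-group component.

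The differences between the genotypes in the change over time that passed a test of the difference itself were in Il10 and Nfil3. For Il10 the interaction was 1.03 on the log2 scale for 18 h against 0 h (edgeR adjusted p = 0.041) and 1.78 from 5 h to 18 h (adjusted p = 1.7e-07). For Nfil3 it was 1.18 for 18 h against 0 h (edgeR adjusted p = 2.4e-05) and 0.95 from 5 h to 18 h (adjusted p = 0.00011). The interactions of each gene share the 18 h libraries.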

How the results depend on the processing

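The lower level of Il10 in BMDM-Nur77-KO at 1 h and 5 h and the higher level of Nfil3 at 18 h passed in every alternative run. Member values were counted for every comparison between genotypes. Other comparisons were counted only where a fit gave an adjusted p below 0.05, so that turns of direction in the rest are not included. Of these values, 735 kept direction and side of the threshold under alternatives other than leaving out a library, 13 turned direction, 8 newly passed and 3 no longer passed. For single libraries left out these numbers were 706, 19, 5 and 14. The Il10 interaction for 18 h against 0 h no longer passed without a filter, with only the groups compared, without the pair of libraries that stood apart (0.95, edgeR adjusted p = 0.071) and without 10 of 16 single libraries. The few Il10 tags at 0 h limit what can be said of that group. Except where an alternative uses fewer samples or genes by construction, the cause was not tested.

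Most values that turned direction lay close to 0. For Maf the sign depended on single libraries, with a range of -0.21 to 0.36 at 5 h. Between genotypes at 5 h, without the pair of libraries, the log2 fold change was 0.12 for Il10ra, 0.0066 for Il10rb, 0.14 for Sbno2, 0.11 for Nfil3 and -0.21 for Maf, and at 18 h -0.12 for Maf. With the GC correction it was 0.064 for Il10ra, 0.12 for Sbno2 and 0.14 for Nfil3 at 5 h. At 5 h DESeq2 gave 0.0096 for Il10rb and 0.0078 for Nfil3, and its size factors in edgeR gave 0.0094 and 0.0074. Leaving out single libraries gave ranges between genotypes of -0.20 to 0.059 for Maf at 0 h, of -0.023 to 0.088 for Il10ra, -0.041 to 0.054 for Il10rb and -0.12 to 0.0079 for Sbno2 at 1 h, and of -0.12 to 0.34 for Maf at 18 h. At 5 h they were -0.14 to 0.12 for Il10ra, -0.028 to 0.0066 for Il10rb, -0.17 to 0.14 for Sbno2, -0.083 to 0.11 for Nfil3, -0.21 to 0.36 for Maf and -0.075 to 0.039 for Prdm1. For Sbno2 in BMDM-WT at 1 h against 0 h the range was -0.0065 to 0.12.

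Of all genes, 989 were called between genotypes at 5 h, against 589 without the pair of libraries, 304 with only the groups compared and 545 to 1718 with single libraries left out. The interaction counts at 1, 5 and 18 h against 0 h and from 5 h to 18 h were 8, 347, 1062 and 1512. At 1 h the count was 37 by DESeq2, 3 without a filter, 274 with only the groups compared and 2 to 9 with single libraries left out. At 5 h it was 585 without the pair, 720.0 with the GC correction, 167 with only the groups compared and 231 to 501 with single libraries left out. At 18 h it was 2021 without the pair and 1635 with the GC correction, and from 5 h to 18 h it was 839 with only the groups compared. With no limit on the log2 fold change, 1427, 736, 2728 and 2426 genes were called between genotypes at 0, 1, 5 and 18 h. In BMDM-WT 2300.0, 7923, 7495 and 7827 were then called for 1, 5 and 18 h against 0 h and 18 h against 5 h, and in BMDM-Nur77-KO 1384, 8064, 7830.0 and 7778.

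Of the members, with no limit on size, 1 was called between genotypes at 0 h and 2 at 18 h, 5 in BMDM-WT at 18 h against 0 h, and 6 from 5 h to 18 h in each genotype. For the interaction at 18 h 1 member was called without a filter and 1 with only the groups compared, at 1 h 1 with only the groups compared, and at 5 h 1 without the pair and 1 with the GC correction. With single libraries left out, 0 to 2 members were called between genotypes at 0 h, and 0 to 1 and 1 to 3 for the interactions at 5 h and 18 h.

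Pairing of libraries by replicate number was not detected. In 12 comparisons the correlation of same-numbered libraries ranged from -0.70 to 0.46, and in 0 of 12 was every one over 0.1. The own number correlated best in 0 to 3 of 4 libraries per comparison. With 4 libraries per group these correlations cannot exclude pairing. With the replicate number as a block, 919 genes were called between genotypes at 5 h and 1082 at 18 h, with a block within genotype 3 for the interaction at 1 h, and no member count changed.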
